A study of Caenorhabditis elegans with 66 samples.

Results

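Peaks of 3 subunits of SNAPc, the complex that activates small nuclear RNA genes, were examined at 6 protein-coding genes of the nematode Caenorhabditis elegans, namely gtsf-1, prde-1, tofu-4, tofu-5, prg-1 and tra-1. The 6 genes were chosen by symbol from 46926 annotated genes of the build WBcel235, of which 19983 are protein-coding. Chromatin immunoprecipitation followed by sequencing (ChIP-seq) had been done with 33 immunoprecipitated (IP) libraries, each with its own input, in 11 groups of 3 replicates. Whole gravid adults at 72 h made up dataset 1, with the groups snpc-1.2::3xflag carrying in addition both snpc-4::aid and Psun-1::tir1 (SNPC-1.2 in SNPC-4 AID), snpc-1.2::3xflag alone (SNPC-1.2) and untagged N2. Dataset 2 held, at 72 h, whole gravid adults with snpc-4::3xflag and the deletion snpc-1.2(-), with snpc-4::3xflag alone (SNPC-4) and of N2, and, at 48 h, whole L4 larvae with snpc-4::3xflag and the deletion snpc-1.3(-), with snpc-4::3xflag alone and of N2. Dataset 3 held germline nuclei of young adults at 56 h, snpc-1.1::3xflag (SNPC-1.1) and N2. Each tagged strain carries 3 copies of the FLAG epitope on the named subunit. The AID strain carries an auxin-inducible degron on SNPC-4 and the TIR1 protein under the sun-1 promoter, which is active in the germline, and use of auxin is not stated in the labels. The description of N2 replicate 2 of dataset 3 names SNPC-1.2, and the library was used as its title gives it.

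SNAPc is known for binding the promoters of small nuclear RNA genes. In C. elegans it also serves the piRNA genes, which are short units, each with its own promoter, gathered mostly in a pair of clusters on chromosome IV. There SNPC-4 acts together with PRDE-1, TOFU-4 and TOFU-5 in a germline complex at piRNA promoters. PRG-1 is the Piwi-family Argonaute that carries piRNAs. GTSF-1 is related to a factor that the fly and mouse piRNA pathways need, while in C. elegans it works with the RNA-dependent RNA polymerase RRF-3 in making a class of endogenous small interfering RNAs. TRA-1 is the zinc-finger transcription factor at the end of the sex determination pathway, and during oogenesis it represses snpc-1.3, whose product serves male piRNAs. The comparisons ask whether SNAPc subunits were found at the genes of the pathway that they serve and at tra-1, and whether that differed between strains and ages.

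A gene was counted as having a peak in a library when the summit of a listed peak lay within 200 bp of either annotated end. The annotation used here gives no strand, so the ends are called lower and upper by coordinate. A fold is the authors' own value for a peak, the IP signal over input at the summit, and it describes a peak within its list only. Whole-worm lists cannot tell fewer bound cells from less signal per cell, and peak lists measure neither the tissue nor the deleted genes, so those labels were not checked.

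The lists differed in length. SNPC-1.2 in SNPC-4 AID had 67 to 281 peaks a list, SNPC-1.2 had 4791 to 9926 and N2 of that dataset had 2 to 16. The 12 SNPC-4 lists of both ages, with and without a deletion, had 14538 to 16732. N2 lists of that dataset had 1400 to 4229 peaks at the later age and 947 to 2930 at the earlier one. The germline nuclei gave 14912, 1504 and 10238 peaks for SNPC-1.1 replicates 2, 3 and 4, against 28 to 1001 for N2. SNPC-1.1 replicate 3 had a peak at none of the 6 genes, and results that rest on it are also given without it. The depth of each library is unknown.

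All members but tofu-4 had a peak in each of the 3 SNPC-4 libraries at 72 h, and tofu-4 had none in any of the 33 libraries. SNPC-4 in snpc-1.2(-) had a peak at 3, 5 and 4 of the 6 genes in its 3 libraries, and N2 of that age at 2, 0 and 2. At 48 h SNPC-4 in snpc-1.3(-) had a peak at 5, 2 and 2 of the genes, SNPC-4 at 4, 4 and 2, and N2 at 0, 1 and 0. SNPC-1.2 had a peak at 2, 2 and 1 of them, while the AID strain and N2 of that dataset had 0 in every library. SNPC-1.1 had a peak at 2, 0 and 4 of the genes, and its N2 libraries at 0. The folds separated gtsf-1 from the rest, since gtsf-1 reached a fold of 19.8, and every summit in the window of another member had a fold of at most 3.61.

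**Figure D1:**
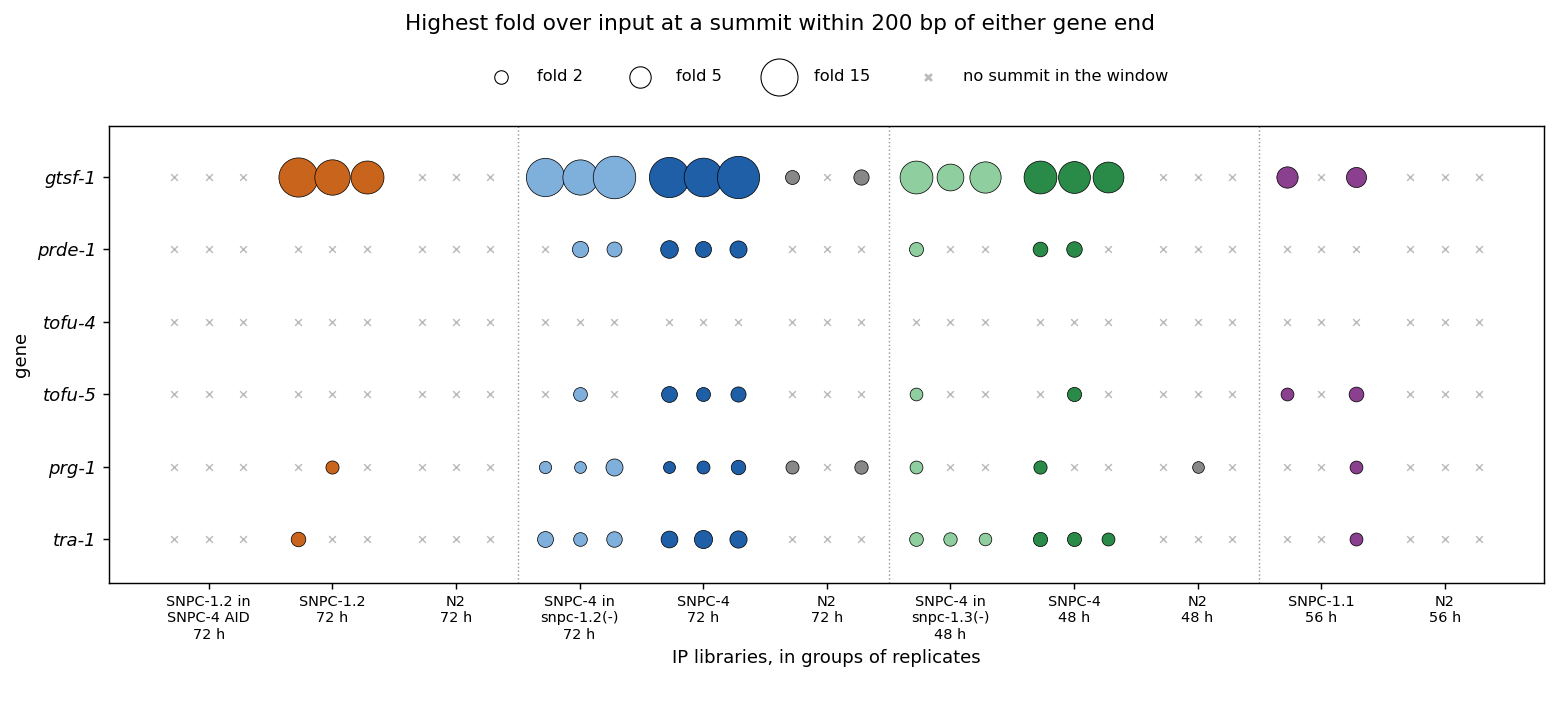
Each column is an IP library, grouped by strain and age, and each row is a gene. The area of a circle is proportional to the fold over input of the highest summit within 200 bp of a gene end, and a cross marks a library with no summit there. The circles of gtsf-1 in SNPC-1.2 and SNPC-4 libraries, at folds from 7.86 to 19.8, are larger than any other, and the row of tofu-4 holds crosses only.

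Over the 4 tagged groups that have an N2 group of the same dataset and age (SNPC-1.2, SNPC-4 at 72 h, SNPC-4 at 48 h and SNPC-1.1), gtsf-1 and tra-1 had a peak more often in tagged libraries than in N2. The exact two-sided permutation test within the 4 pairs, with Benjamini-Hochberg adjustment over all 19983 protein-coding genes, called these 2 of the 6 genes. Its p-values take the SNPC-4 and N2 libraries of the 2 ages as separate samples, though their animals may come from the same cultures. N2 lists held 2 to 16 peaks in the SNPC-1.2 pair and 28 to 1001 in the SNPC-1.1 pair, so few genes could have an N2 peak there. Over the SNPC-4 pairs alone the adjusted p by exact permutation was 0.488 for gtsf-1 and 0.0964 for tra-1, with 0 protein-coding genes called. The same test called 8.23% of protein-coding genes higher and 0 lower, and at an unadjusted p under 0.05 it gave 2669 higher and 3 lower. Without SNPC-1.1 replicate 3 it called 2252 genes, and gtsf-1, tra-1 and tofu-5 among the members. Of the 2 called members, gtsf-1 lies in the larger piRNA cluster, where the test called 59.9% of 459 protein-coding genes. When the lists of each pair were shortened by q to the shortest of them, 0 genes were called, but the shortest lists held 2 peaks in the SNPC-1.2 pair and 28 in the SNPC-1.1 pair, so hardly any gene could have a peak in these pairs. The SNPC-4 pairs kept 1400 peaks a list at 72 h and 947 at 48 h. In this setting the difference was 33.3 percentage points for gtsf-1 and 0 for tra-1.

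gtsf-1 lies on chromosome IV from 16865840 to 16866504, inside the larger piRNA cluster of that chromosome, and holds no short RNA gene. Its nearest piRNA gene, 21ur-12257, begins 3298 bp past its upper end, and on the lower side the nearest piRNA gene, 21ur-10793, is 25573 bp away. The nearest other short RNA gene on the lower side, T06A10.105, is 10278 bp away. The protein-coding gene lsy-13 ends 354 bp before it and T06A10.107 begins 1019 bp after it.

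A site stood before the lower end of gtsf-1, with summits 140 to 157 bp outside the gene in 19 of the 33 libraries. These summits lie between lsy-13 and gtsf-1 and are nearer to gtsf-1. The folds there were 16.8, 13.7 and 11.9 in the 3 SNPC-1.2 libraries, which ranked 12 of 2032, 17 of 1344 and 13 of 515 among the protein-coding genes with a peak in those lists. In the AID strain no library had a summit within the window. A single AID library, replicate 1, with the longest list of the 3, had a summit just outside it at 209 bp, with a fold of 2.77. N2 of the same dataset had none, but its lists held 2 to 16 peaks, and only 3 protein-coding genes had a peak in any of them. The absence in N2 was thus close to fixed in advance for any gene. The pattern of 3 of 3 SNPC-1.2 libraries against 0 of 3 in N2 held for 1.87% of protein-coding genes. Against 0 of 3 in the AID strain it held for 1.53%.

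In SNPC-4 worms the same site was listed in every library. At 72 h the folds were 16.0, 13.6 and 19.8 in snpc-1.2(-) worms and 17.7, 16.4 and 19.6 in SNPC-4 worms, against 2.14 and 2.56 in N2 replicates 1 and 3 and no summit in N2 replicate 2. The N2 lists with the site held 2236 and 4229 peaks, and the one without it held 1400. At 48 h the folds were 11.8, 7.86 and 10.7 in snpc-1.3(-) worms and 11.8, 11.1 and 10.4 in SNPC-4 worms, and no N2 library listed the site. The percentile of the gtsf-1 peak by fold lay between 88.8 and 97.8 in these 12 SNPC-4 lists, and at 60.1 and 59.2 in the 2 N2 lists.

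SNPC-1.1 listed the gtsf-1 site with folds of 4.97 in replicate 2 and 4.39 in replicate 4, and not in replicate 3. Its N2 libraries had none. There the percentiles were 74.2 and 75.3. Over the 4 pairs gtsf-1 had a peak in 11 of 12 tagged libraries against 2 of 12 N2 libraries, a difference of 75 percentage points with an exact p of 0.0005 and an adjusted p of 0.0194. The SNPC-1.2 pair, whose N2 lists could hold hardly any gene, gave 3 of these tagged libraries. The call stood at a summit fold of at least 3 and whichever single library was left out, and it ended with a window of 100 bp, where no summit fell. It also ended with shortened lists and with same-numbered replicates as a block, settings that each called 0 protein-coding genes.

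Another site lay past the upper end of gtsf-1, listed in 19 libraries, and most of its summits fell outside the window. Its folds at 72 h were 11.0, 11.4 and 14.9 in snpc-1.2(-) worms and 11.1, 8.31 and 12.8 in SNPC-4 worms, against 1.87 in N2 replicate 1. SNPC-1.1 had 8.50 and 5.03 there, both above the folds of the same libraries at the lower site. In SNPC-1.2 lists the folds were 5.51, 5.36 and 5.08, each below the same library's fold at the lower site.

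The listed region around gtsf-1 was broad in SNPC-4 lists. In all 12 it spanned 14592 to 16301 bp, covered the whole gene and held 49 or 50 piRNA genes, with summits at some of them whose highest fold per list was 6.17 to 8.86. In each of these lists the gtsf-1 summit had a higher fold than the piRNA summits of its own region, and they came closest in snpc-1.3(-) replicate 2, at 7.86 for gtsf-1 and 7.17 for the highest piRNA summit. SNPC-1.2 replicate 1 had a region of 16280 bp with 50 piRNA genes, and replicates 2 and 3 had regions of 3391 and 2863 bp that covered gtsf-1 and reached no piRNA gene. Regions at gtsf-1 in SNPC-1.1 and N2 lists spanned 270 to 1538 bp and held no piRNA gene.

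**Figure D2:**
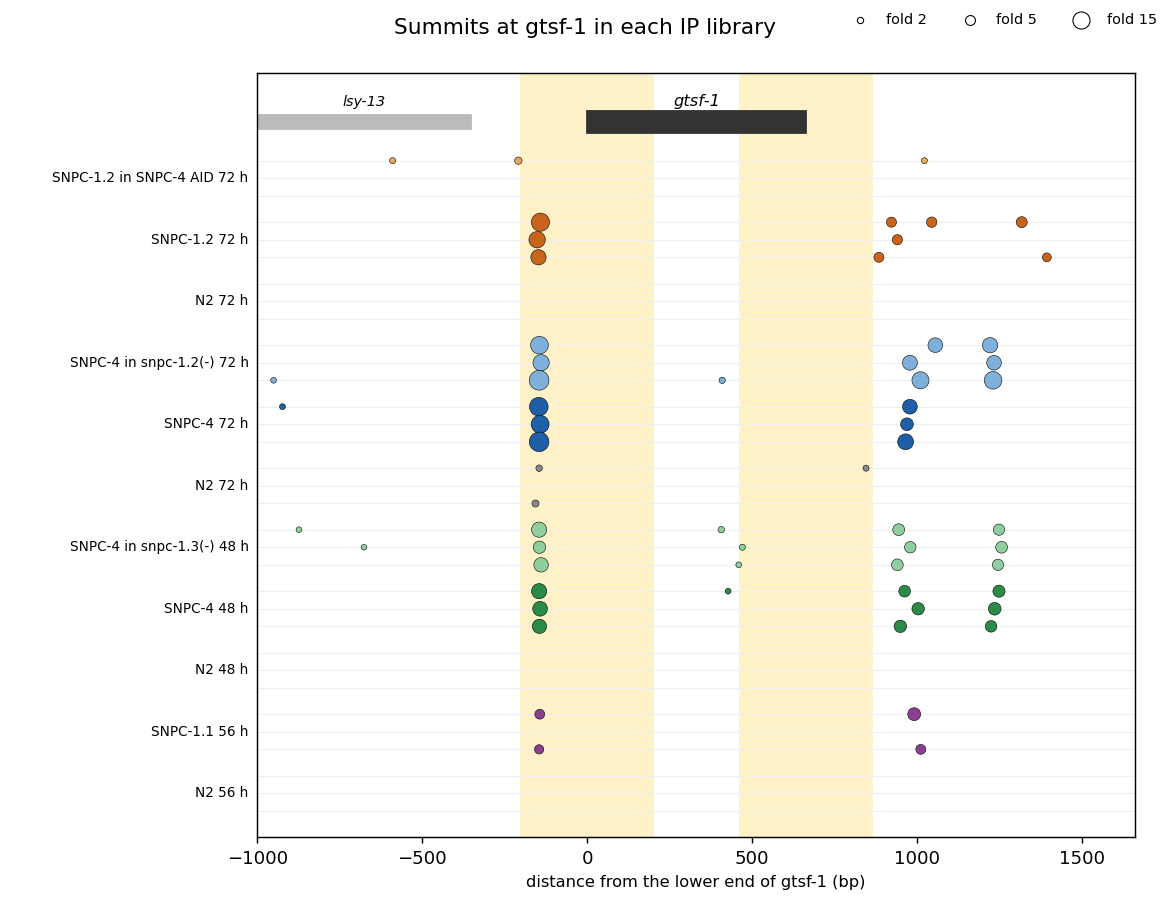
Each thin line is an IP library and each circle a peak summit, placed by its distance in bp from the lower end of gtsf-1 (dark bar; the grey bar is lsy-13), with area proportional to fold over input. Yellow bands mark 200 bp on either side of each gene end. Summits line up 140 to 157 bp before the lower end in 19 libraries, and the 2 N2 circles there are small, at folds of 2.14 and 2.56.

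The 3 genes whose products act with SNPC-4 at piRNA promoters had peaks of low fold or none. prde-1 lies on chromosome V from 15538244 to 15547086, tofu-4 on chromosome I from 4824904 to 4826639, and tofu-5 on chromosome I from 7069440 to 7070665. No piRNA gene lies within 184870 bp of prde-1 or within 62828 bp of tofu-4, and the nearest to tofu-5, 21ur-15127, is 2152 bp from its upper end. Neither these genes nor the other members have a short RNA gene inside them or within 500 bp.

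At prde-1 the summits lay 102 to 134 bp before the lower end in 8 libraries, all of SNPC-4. At 72 h the folds were 2.87 and 2.45 in snpc-1.2(-) replicates 2 and 3 and 3.41, 2.82 and 3.21 in SNPC-4 worms, and no N2 library listed the site. At 48 h the fold was 2.15 in snpc-1.3(-) replicate 1, and 2.36 and 2.64 in SNPC-4 replicates 1 and 2, again with none in N2. Over the 4 pairs that made 5 of 12 tagged libraries against 0 of 12 in N2, with an exact p of 0.02 and an adjusted p of 0.168 (0.143 without SNPC-1.1 replicate 3). The site lies between prde-1 and F21A3.4, which ends 185 bp before prde-1, and both genes had a peak in the same 8 libraries. All of these summits are nearer to F21A3.4.

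Past the upper end of prde-1 stood a tRNA gene, F28F8.t4, at 789 bp and the non-coding RNA gene F28F8.11 at 780 bp, and 18 libraries listed summits 826 to 883 bp past the gene. Those summits are outside the window and had folds of 3.96, 2.90 and 3.83 in SNPC-4 at 72 h, and of 3.68, 2.58 and 2.29 in SNPC-4 at 48 h, against 1.99, 1.88 and 1.88 in N2 at 48 h. No N2 library listed them at 72 h. The summits before the lower end, in contrast, were listed in no N2 library of either age.

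tofu-5 had summits 91 to 163 bp before its lower end in 8 libraries. The folds at 72 h were 2.09 in snpc-1.2(-) replicate 2 and 2.76, 2.13 and 2.51 in SNPC-4 worms, with none in N2. At 48 h there was a single library in each of snpc-1.3(-), at 1.78, and SNPC-4, at 2.21, with none in N2. SNPC-1.1 replicates 2 and 4 listed it at 1.81 and 2.38, and its N2 libraries did not. Over the 4 pairs it was in 6 of 12 tagged libraries against 0 of 12 in N2, with an exact p of 0.01 and an adjusted p of 0.0963. By the same exact permutation test the adjusted p was 0.0264 without SNPC-1.1 replicate 3, and 0.0466 and 0.0459 without SNPC-4 replicates 1 and 3 at 48 h. The gene nuo-6, which ends 254 bp before tofu-5 and encodes a subunit of mitochondrial complex I, had a peak in the same 8 libraries.

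tofu-4 had no summit within 200 bp in any library. Summits stood farther out, 284 to 318 bp past its upper end, in the 433 bp before htp-3, which encodes a protein of the meiotic chromosome axis. Their folds were 2.18 and 2.91 in snpc-1.2(-) replicates 1 and 3 and 3.45, 3.83 and 3.92 in SNPC-4 at 72 h, with none in N2, while SNPC-1.2 replicate 1 had 2.84. None was listed at 48 h, so with a window of 500 bp tofu-4 was in 3 of 3 SNPC-4 libraries at 72 h and 0 of 3 at 48 h. These summits are nearer to htp-3, which had the same SNPC-4 counts at the 2 ages with the window of 200 bp.

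**Figure D3:**
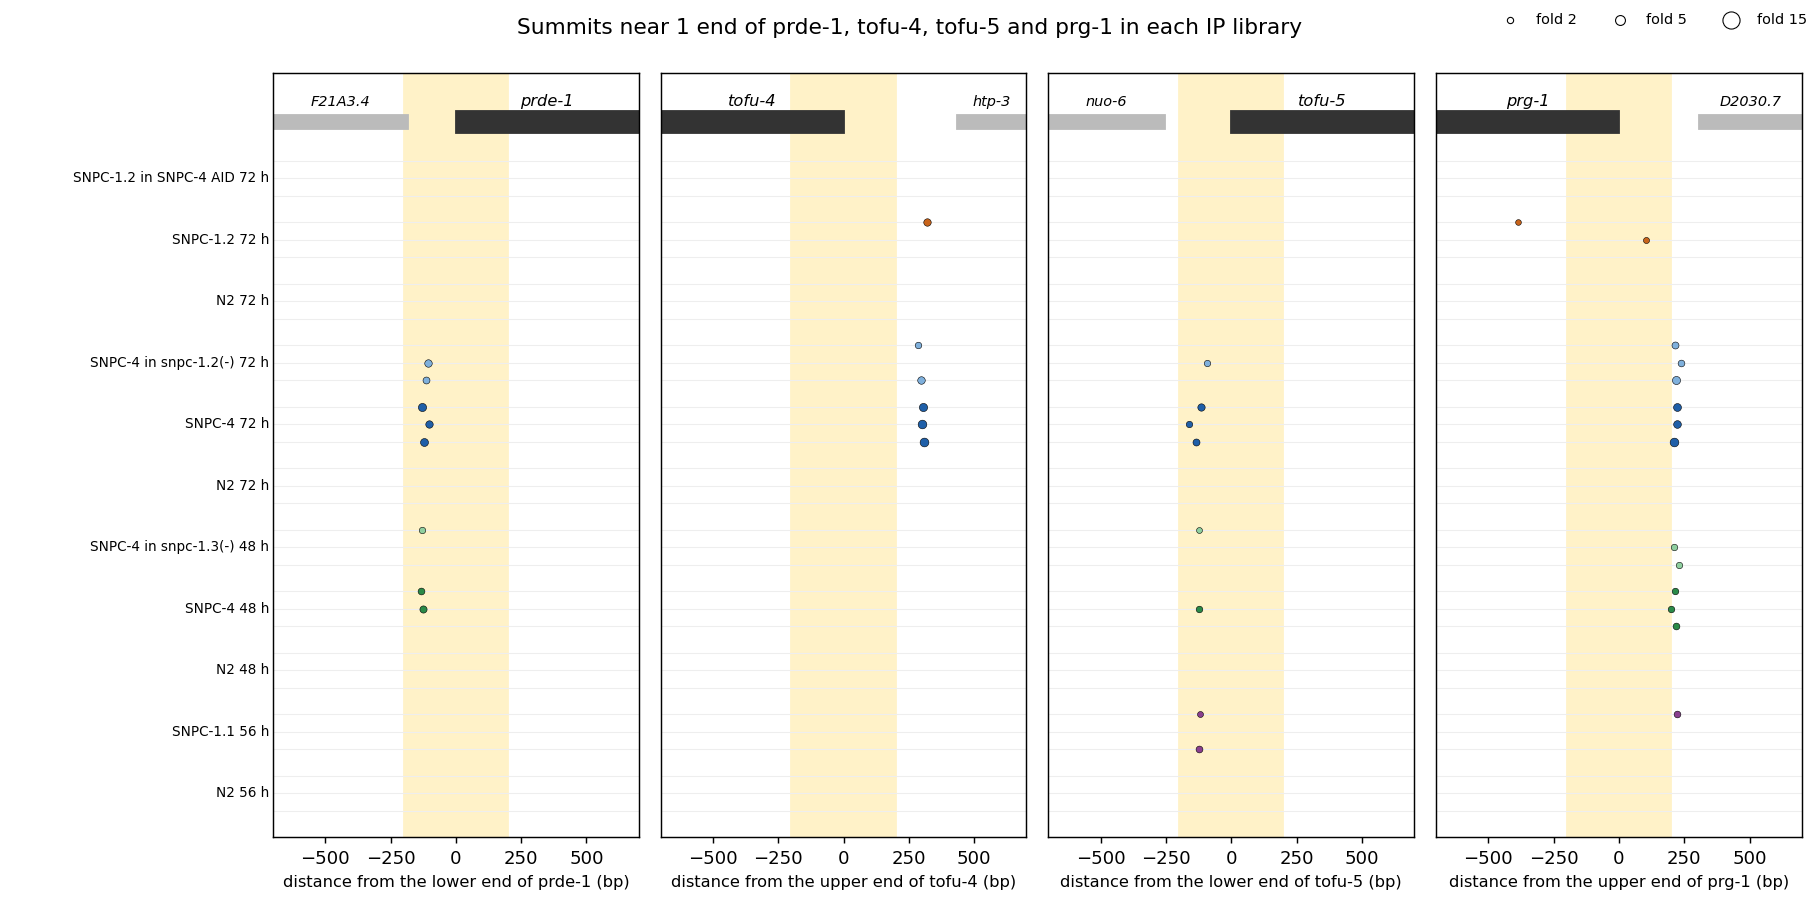
Each panel shows 1 end of a gene (dark bar) with its neighbour (grey bar), each thin line an IP library and each circle a summit placed by its distance in bp from that end, with area proportional to fold over input. The yellow band marks the window of 200 bp on either side of the end. Summits of prde-1 and tofu-5 fall inside it, those of tofu-4 at 284 to 318 bp and most of those at the upper end of prg-1 at 201 to 239 bp fall just outside, and no N2 library has a circle in any panel.

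prg-1, on chromosome I from 7585329 to 7588367, had peaks both in tagged and in N2 libraries. Its nearest piRNA gene, 21ur-12259, is 17122 bp away. Summits lay from 51 bp before to 53 bp after its lower end in 12 libraries, of which 3 were N2. At 72 h the folds were 1.65, 1.52 and 3.18 in snpc-1.2(-) worms and 1.56, 1.85 and 2.30 in SNPC-4 worms, against 1.87 and 1.95 in N2 replicates 1 and 3. At 48 h a single library of each group listed it, at 1.81 in snpc-1.3(-), 1.91 in SNPC-4 and 1.5 in N2. D2030.12, which ends at 7585340, overlaps this end and had a peak in 12 of the 13 libraries with a prg-1 peak.

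Over the 4 pairs prg-1 was in 6 of 12 tagged libraries against 3 of 12 in N2, with an exact p of 0.35 and an adjusted p of 1 (0.804 without SNPC-1.1 replicate 3). A further site stood 201 to 239 bp past its upper end, just outside the window, in 12 libraries and no N2 library. Its folds at 72 h were 2.50, 2.30 and 3.36 in snpc-1.2(-) worms and 3.17, 3.04 and 3.86 in SNPC-4 worms. At 48 h they were 2.17 and 2.14 in snpc-1.3(-) replicates 2 and 3 and 2.19, 2.20 and 2.34 in SNPC-4 worms, and SNPC-1.1 replicate 2 had 2.30. D2030.7 begins 306 bp past prg-1, so these summits are nearer to D2030.7. With a window of 500 bp prg-1 passed the test over the 4 pairs, at an adjusted p of 0.0438. SNPC-1.2 replicate 2 alone had a summit at this end inside the window, at 103 bp with a fold of 1.89.

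tra-1, on chromosome III from 11170890 to 11195201, is the longest of the 6 genes at 24312 bp, and its nearest piRNA gene is 363388 bp away. Summits at its upper end lay 117 to 181 bp past the gene in 14 libraries, none of them N2. The folds at 72 h were 2.77, 2.05 and 2.64 in snpc-1.2(-) worms and 3.09, 3.61 and 3.24 in SNPC-4 worms. At 48 h they were 2.06, 1.97 and 1.73 in snpc-1.3(-) worms and 2.22, 2.17 and 1.83 in SNPC-4 worms. SNPC-1.2 replicate 1 had 2.32 and SNPC-1.1 replicate 4 had 1.83. These folds ranked low in their lists, at the 52.7 percentile or below.

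Over the 4 pairs tra-1 had a peak in 8 of 12 tagged libraries against 0 of 12 in N2, a difference of 66.7 percentage points with an exact p of 0.00125 and an adjusted p of 0.0234. The zero in N2 depended on the window. N2 replicates 3 and 1 at 72 h had summits 219 and 245 bp past the gene, with folds of 2.25 and 1.97, and with a window of 500 bp the adjusted p was 0.0615. At a summit fold of at least 3 it was 0.997, and counting any region that overlaps the gene it was 0.38. With shortened lists, where its difference was 0 points, or with same-numbered replicates as a block, tra-1 was not called either.

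Inside tra-1 the listed regions were narrow and several. A site 4658 bp from the lower end was listed in 14 libraries and in no N2 library at the same place. Its folds were 2.66, 2.82 and 2.98 in snpc-1.2(-) worms and 2.87, 2.23 and 3.63 in SNPC-4 worms at 72 h, and 3.14, 4.04 and 2.74 in snpc-1.3(-) worms and 3.07, 3.35 and 3.93 in SNPC-4 worms at 48 h. SNPC-1.1 replicates 2 and 4 had 5.94 and 3.14, and 5.94 was the highest fold at any tra-1 site. Every SNPC-4 library of either age listed this site, and no SNPC-1.2 library did. The SNPC-1.2 lists are of another dataset and were shorter, at 4791 to 9926 peaks against 14538 to 16732, so their lack of the site is not shown to be a difference between subunits. Close by, N2 replicate 2 at 48 h had a summit 4975 bp from the lower end, with a fold of 1.51. Its region overlaps those of some tagged libraries at the site.

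A further site, 14793 bp from the lower end, was listed in 18 libraries, of which 4 were N2. Its folds were 2.33, 2.71 and 2.1 in SNPC-4 at 72 h against 1.85 in N2 replicate 1, and 2.89, 3.27 and 3.64 in SNPC-4 at 48 h against 2.51, 2.07 and 2.03 in N2. The share of tra-1 inside listed regions was 4.85 ± 1.02% in SNPC-4 at 72 h and 0.967 ± 0.904% in N2 (SD, n = 3 each). At 48 h it was 6.33 ± 0.34% in SNPC-4 and 4.72 ± 2.13% in N2 (SD, n = 3 each), and the groups overlapped. Before the lower end, summits 356 to 510 bp out, within the pseudogene Y47D3A.5, were listed in the 6 libraries of snpc-1.2(-) and SNPC-4 at 72 h and in no other, with folds of 1.51 to 2.01.

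**Figure D4:**
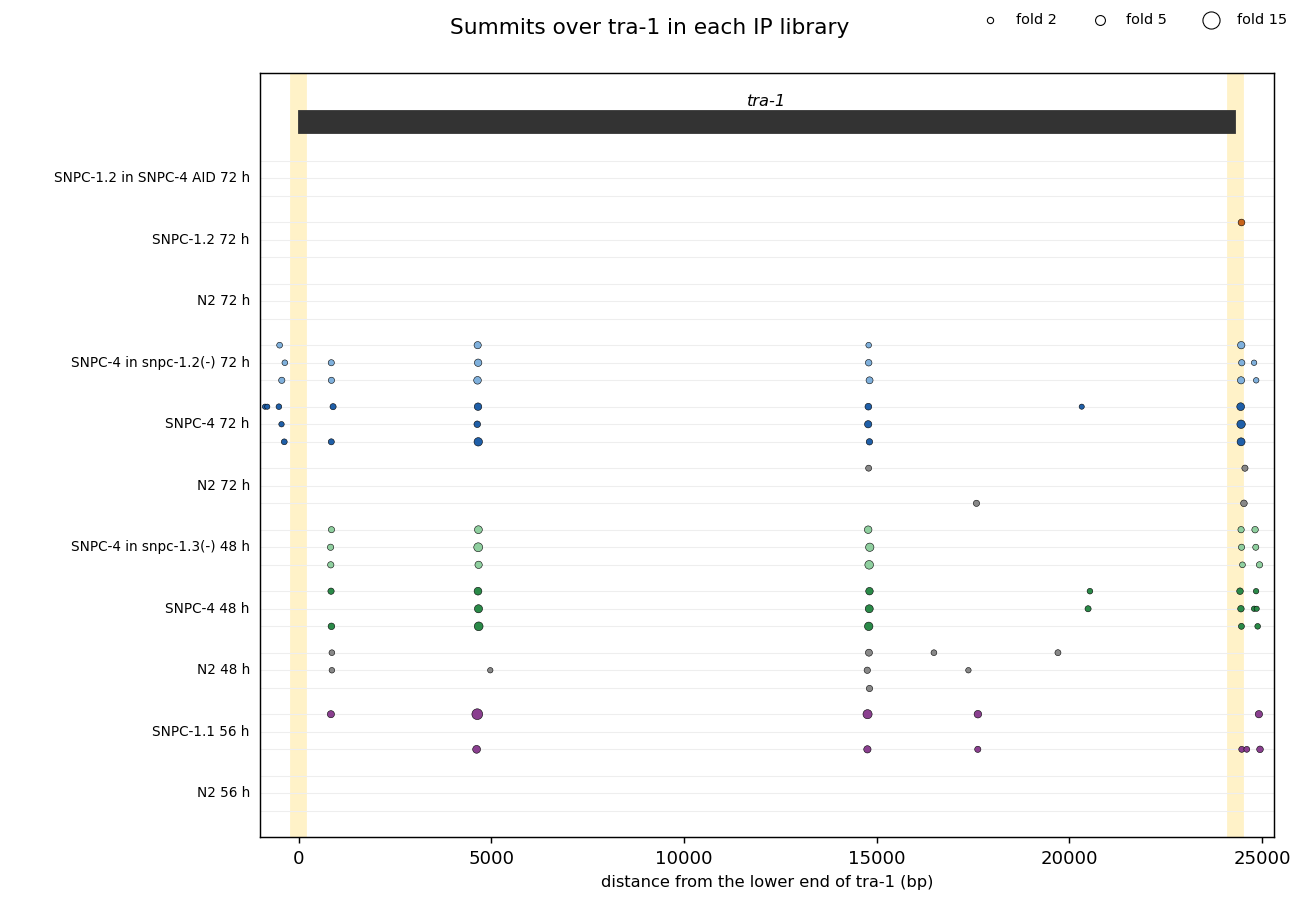
Each thin line is an IP library and each circle a summit, placed by its distance in bp from the lower end of tra-1 (dark bar), with area proportional to fold over input. Yellow bands mark the windows of 200 bp around the gene ends. Summits at 4658 bp are in tagged libraries only, with an N2 circle of fold 1.51 close by at 4975 bp. Those at 14793 bp are also in 4 N2 libraries, and the 2 N2 circles at the upper end lie just past the band.

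Between single groups of 3 libraries the smallest exact two-sided p is 0.1, so a gene was called when a peak was listed in all 3 libraries of a group and in 0 of 3 of the other. SNPC-1.2 against N2 called gtsf-1 higher, 1 of 6 members beside 1.87% of protein-coding genes (1096 in place of 374 without SNPC-1.2 replicate 3, the shortest SNPC-1.2 list), and 40.5% of those in the larger piRNA cluster. SNPC-4 against N2 at 72 h called prde-1, tofu-5 and tra-1 higher, 3 of 6 beside 8.80% of protein-coding genes higher and 0.0200% lower. At a summit fold of at least 3 it called gtsf-1 and tra-1, and no longer prde-1 and tofu-5. With a window of 500 bp it called tofu-4 and not tra-1, and tofu-5 and prde-1 as before. Counting any region that overlaps the gene it called prde-1 alone. At 48 h it called gtsf-1 and tra-1 higher, 2 of 6 beside 8.69% of genes higher, 0.0150% lower and 55.6% higher in the larger cluster, and tra-1 was lost at a fold of at least 3 or by region overlap. SNPC-1.1 against N2 called 0 of 6 members and 0.410% of genes, and without the short replicate 3 it called gtsf-1 and tofu-5 higher, with 2081 genes in all in place of 82. With a window of 100 bp no member was called in any of these comparisons. The same held with lists shortened to the shortest of each pair, which leaves 2 peaks a list for SNPC-1.2, 28 for SNPC-1.1, 1400 for SNPC-4 at 72 h and 947 at 48 h.

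gtsf-1 was not among the SNPC-4 calls at 72 h, where 2 N2 libraries listed it at low fold. At a summit fold of at least 3 SNPC-4 had it in 3 of 3 libraries and N2 in none, at either age. Taking both ages together, SNPC-4 and N2 differed at tra-1 in 6 of 6 against 0 of 6 libraries, with an exact p of 0.005, the smallest that the 400 labellings allow, and an adjusted p of 0.0964. For prde-1 the counts were 5 and 0 (adjusted p = 0.233), for tofu-5 4 and 0 (adjusted p = 0.488), for gtsf-1 6 and 2 (adjusted p = 0.488) and for prg-1 4 and 3 (adjusted p = 1), all by exact permutation. This test called 0 protein-coding genes, and 1717 were higher at an unadjusted p under 0.05. It too takes the 2 ages as separate samples, though they may share cultures. The test of whether the difference between SNPC-4 and N2 changed with age gave an adjusted p of 1 for every member by exact permutation. Changes of 66.7 percentage points for tofu-5 and −66.7 for gtsf-1 each had an exact p of 0.4. With 3 libraries a group this test thus cannot show that the difference was the same at both ages.

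The AID strain was set against SNPC-1.2 worms without the degron. gtsf-1 was called lower, in 0 of 3 AID libraries against 3 of 3 SNPC-1.2 libraries, and it was the only member with a peak in every SNPC-1.2 library. The same rule called 1.53% of protein-coding genes lower (305, or 1017 without SNPC-1.2 replicate 3) and none higher, and 34.2% lower of those in the larger cluster. The AID lists, at 67 to 281 peaks, were all shorter than the SNPC-1.2 lists, and with lists shortened to the shortest, at 67 peaks, the call ended. It also ended with a window of 500 bp, which takes in the AID summit at 209 bp.

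In the deletion strains no member was called in either direction. SNPC-4 in snpc-1.2(-) against SNPC-4 at 72 h had gtsf-1, prg-1 and tra-1 in 3 of 3 libraries of both groups, prde-1 in 2 and 3 libraries, and tofu-5 in 1 and 3. That rule called 0.170% of protein-coding genes higher and 0.631% lower. SNPC-4 in snpc-1.3(-) against SNPC-4 at 48 h had gtsf-1 and tra-1 in 3 of 3 libraries of both, prde-1 in 1 and 2, and tofu-5 and prg-1 in 1 and 1, and the rule called 0.125% of genes higher and 0.0801% lower. SNPC-4 at 72 h against 48 h had prde-1 in 3 and 2 libraries, tofu-5 in 3 and 1, and prg-1 in 3 and 1, with no member called, beside 1.55% of genes higher and 0.636% lower. Animals of the 2 ages may come from the same cultures, which this rule does not take into account. These comparisons share the SNPC-4 libraries with those against N2. With 3 libraries a group, differences of 1 or 2 libraries cannot be called. Some of these outcomes turned on a library. Without SNPC-4 replicate 1 at 48 h prg-1 was called higher at 72 h, without replicate 2 tofu-5 was, and without snpc-1.2(-) replicate 2 tofu-5 was called lower in that deletion strain.

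Other genes of these pathways, from 3 lists, were read by the same test over the 4 pairs. Of 24 other piRNA biogenesis and effector genes, 21 matched a protein-coding record, and 5 (23.8%, beside 8.23% of all protein-coding genes) had a peak more often in tagged libraries than in N2, with none lower. Without SNPC-1.1 replicate 3, a setting chosen after the data were seen, there were 8 (38.1%, beside 11.3%). The 5 were tost-1, in 10 of 12 against 0 of 12 libraries (adjusted p = 0.0156), ints-11 (10 against 1), tofu-1 (8 against 0), tofu-7 (8 against 0) and pid-1 (7 against 0), all by exact permutation. TOST-1 and PID-1 are alternative partners in the complex that processes piRNA precursors, and INTS-11 is the endonuclease subunit of the Integrator complex. The median difference over the 21 genes was 25 percentage points, and over all protein-coding genes it was 0. At 72 h tost-1 had folds of 5.67, 5.38 and 6.60 in SNPC-4, and at 48 h of 2.84, 2.78 and 2.71.

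Of the same list, snpc-1.2 and pid-5 did not pass the test over the 4 pairs. snpc-1.2 itself had SNPC-4 peaks at 72 h with folds of 4.58, 4.23 and 4.75 and none in N2. pid-5 had a peak in every SNPC-1.2 library, at 3.84, 3.59 and 3.08, with none in N2, whose lists there held 2 to 16 peaks. In the AID strain, with lists of 67 to 281 peaks, pid-5 was called lower than in SNPC-1.2 worms. It was 1 of 21 genes of the list, beside 1.53% of all protein-coding genes.

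Of 28 genes of small RNA amplification and germ granules, 27 matched, and 4 (14.8%, beside 8.23% of all genes) passed in the higher direction with none lower, or 5 without SNPC-1.1 replicate 3. The 4 were pgl-1 (10 of 12 tagged against 0 of 12 N2 libraries), ekl-1 (10 against 1), rrf-3 (9 against 1) and glh-1 (7 against 0), with adjusted p from 0.0156 to 0.0362 by exact permutation. PGL-1 and GLH-1 are core P granule proteins, and pgl-1 lies in the smaller piRNA cluster. At 72 h pgl-1 had folds of 8.92, 7.74 and 10.4 in SNPC-4, and at 48 h of 7.64, 6.69 and 6.45, with no N2 peak at either age. The median difference over this list was 8.33 points.

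Of 25 other sex determination genes, all matched and 6 (24%, beside 8.23% of all genes) passed in the higher direction, with none lower, namely tra-3, fem-1, fem-2, fem-3, mog-1 and nos-3. Without SNPC-1.1 replicate 3 there were 9. The 3 fem genes act upstream of tra-1 and promote male fates, and tra-3 encodes a protease of the same pathway. tra-3 lies in the larger piRNA cluster and fem-1 in the smaller one. tra-3 had a peak in 10 of 12 tagged against 0 of 12 N2 libraries and folds of 10.2, 8.38 and 9.91 in SNPC-4 at 72 h. fem-1 was in 11 against 2 libraries, and its folds in SNPC-1.2 worms were 5.13, 5.54 and 4.18. It had no peak in the AID strain, whose lists held 67 to 281 peaks. The median difference over this list was 0 points, the same as over all genes.

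Between SNPC-4 worms with and without snpc-1.2, 0 of 21 genes of the piRNA list were called, 1 of 27 of small RNA amplification (rde-10) and 2 of 25 of sex determination (sdc-3 and fbf-2), all 3 lower in snpc-1.2(-), at 0 of 3 against 3 of 3 libraries. They stand beside 0.631% of all genes called lower. fbf-2 has a near-identical paralog, fbf-1, so its reads may be shared. Between snpc-1.3(-) and SNPC-4 at 48 h none of the 3 lists had a gene called. Between SNPC-4 at 72 h and 48 h, 1 of 21 genes of the piRNA list was called higher (xrn-2). Of the 27 of small RNA amplification, 1 was called higher (eri-1) and 1 lower (dcr-1), and of the 25 of sex determination 2 higher (sdc-3 and fbf-1). They stand beside 1.55% of all genes called higher and 0.636% lower. The eri-1 folds at 72 h were low, at 1.99, 1.43 and 1.81, and the reads of fbf-1 may likewise be shared with fbf-2.

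The genes whose presence over the 33 libraries was most like that of each member were named by the Jaccard index, the share of libraries with either gene's peak that had both. For gtsf-1 these were rme-2, which encodes the yolk receptor of oocytes, puf-11, of the Pumilio family of RNA-binding proteins, and ZK616.5, all with an index of 1 over 19 libraries and all within the bounds of the smaller piRNA cluster, at 5470027, 6421585 and 5391929 on chromosome IV. In all, 8 genes had the presence of gtsf-1 in every library. For tra-1 they were sod-2 on chromosome I, which encodes a mitochondrial superoxide dismutase (index 1 over 14 libraries), and C01G10.10 and C01G10.9 on chromosome V (index 0.933). For prde-1 they were F21A3.4 (1), aptf-3 (0.889) and lmtr-2 (0.8), for tofu-5 nuo-6 (1), lbp-7 (0.875) and swsn-2.2 (0.8), and for prg-1 D2030.12 (0.923), npp-15 (0.8) and pole-3 (0.786). F21A3.4, nuo-6 and D2030.12 adjoin the members and share their summits.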

How the data were processed

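Peak lists of 33 IP libraries were analysed, each made by the authors against its own input. The submitters' processing notes name MACS2 2.1.2, deepTools and the build WBcel235, and an aligner is not given in the sources used here. The deposited lists give a ratio per peak (fold of IP over input at the summit), the −log10 of its q value, whose lowest value is 1.30 (q = 0.05), and the summit offset in bp from the region start. No reads were used, so depth is unknown and no counting interval is given. Folds were ranked only within a list. The cut at a fold of at least 3 and the circle areas in the figures, however, use the same scale for all lists. Lists whose folds run lower as a whole thus pass that cut less often.

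Gene positions came from RefSeq's table for WBcel235, which holds no strand, exons or sequence, so promoters could not be told from gene ends and no sequence is printed. Presence of a peak meant a summit no more than 200 bp from either gene end. Presence was compared by exact two-sided permutation tests, stratified over the 4 pairs of tagged and N2 groups (160000 labellings, smallest p 1.25e-05) or over both ages of SNPC-4 (400 labellings), with Benjamini-Hochberg adjustment over 19983 protein-coding genes at 0.05. Groups of 3 were compared by the all-against-none rule. The tests were tried on simulated data in which unchanged genes had the same peak rate in tagged and N2 libraries. That trial does not show how the tests behave with lists of unlike length. Python 3.11.15, numpy 2.4.6 and pandas 2.3.3 were used.

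Groups and replicate numbers came from the titles. The labels do not tie replicates to separate cultures, so p-values measure the spread between these samples, which may be technical, and, per the labels' protocols, the animals left after the 48 h harvest were grown on for the later one. Library names run in order by replicate number within each dataset, so a number may mark a shared batch, though the labels do not say so. Same-numbered samples did not deviate together (correlations −0.208 to 0.0501), and the main tests did not pair them. With 3 libraries a group these correlations cannot show that the numbers mark no batch, so the replicate block is given as an alternative. Alternatives were windows of 100 and 500 bp, any overlap of a region with the gene, a fold of at least 3, a −log10 q of at least 5, shortened lists, other gene sets tested, a replicate block and each library left out. Named genes were the 6 members, their neighbours, the 3 most similar genes and listed genes called in a comparison. The members and lists were chosen with earlier results of these data known.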

Additional observations from a re-analysis of the deposited data

How the results depend on the processing

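Counts of members called were as follows under the alternatives. Over the 4 pairs 2 members were called (gtsf-1 and tra-1), against 0 with a window of 100 bp and 0 with shortened lists. Shortened lists held 2 peaks in the SNPC-1.2 pair and 28 in the SNPC-1.1 pair, so the loss there is built in. The SNPC-4 pairs kept 1400 peaks a list at 72 h and 947 at 48 h. Over the 4 pairs the difference in this setting was 33.3 points for gtsf-1 and 0 for tra-1. The count was 1 (gtsf-1) by region overlap and 1 (gtsf-1) at a fold of at least 3. It was 4 (with prde-1 and tofu-5) when only genes with a peak were tested and 3 (with tofu-5) when all annotated genes were. With a window of 500 bp the 2 called were gtsf-1 and prg-1, not tra-1. With same-numbered replicates as a block (replicate block) 0 were called, at adjusted p of 0.12 for gtsf-1 and tra-1, and 0 of all protein-coding genes. Leaving out any single library kept both, with adjusted p of 0.00554 to 0.0194 for gtsf-1 and 0.00899 to 0.0399 for tra-1. Over both ages of SNPC-4 the count of 0 was 1 (tra-1) when only genes with a peak, or all annotated genes, were tested.

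For SNPC-1.2 against N2 the count of 1, for the AID strain against SNPC-1.2 the count of 1, and for SNPC-4 against N2 the counts of 3 at 72 h and 2 at 48 h were each 0 with a window of 100 bp and with shortened lists. The AID count was also 0 with a window of 500 bp. At 72 h the 3 were prde-1, tofu-4 and tofu-5 at 500 bp, and a fold of at least 3 gave 2 (gtsf-1 and tra-1, with prde-1 and tofu-5 lost). By region overlap SNPC-4 against N2 gave 1 at 72 h (prde-1) and 1 at 48 h (gtsf-1), and at a fold of at least 3 it gave 1 at 48 h (gtsf-1). SNPC-1.1 against N2 gave 2 with the block in place of 0, and ranged from 0 to 2 with a library left out (2 without replicate 3). For snpc-1.2(-) against SNPC-4 the count was 1 at a fold of at least 3 (tra-1 lower), 1 with the block (tofu-5 lower) and 0 to 1 with a library left out. SNPC-4 at 72 h against 48 h gave 1 with a window of 500 bp (tofu-4), 1 at a fold of at least 3 (tra-1), 2 with the block (tofu-5 and prg-1) and 0 to 1 with a library left out. No called member changed direction. The cause was not tested, except that shortened lists, narrower windows and leave-one-out alter the rule itself.

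Counts over all protein-coding genes moved with the same settings: 1645 over the 4 pairs, against 0 at 100 bp, 3651 at 500 bp, 3435 by region overlap, 907 at a fold of at least 3 and 0 with shortened lists. Over both ages of SNPC-4, 0 was 2140 at 500 bp, 2321 by region overlap and 1037 when only genes with a peak were tested. Leaving out a library moved the counts for snpc-1.3(-) against SNPC-4 up to 81 higher (without snpc-1.3(-) replicate 2) in place of 25 and 48 lower (without SNPC-4 replicate 2) in place of 16. For snpc-1.2(-) against SNPC-4 they reached 73 higher (without snpc-1.2(-) replicate 2) in place of 34 and 239 lower (without snpc-1.2(-) replicate 3) in place of 126.

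With regions limited to a fold of at least 3, the share of the gene body covered in SNPC-4 at 72 h was 0.588% for prde-1 (0.83% without the limit), 0.834% for prg-1 (29.4%) and 0.919% for tra-1 (4.85%). Within 1000 bp in place of 500 bp, prde-1 had 2 short RNA genes. The depth behind each list is unknown, so a gene without a listed peak is not shown to be unbound, and 3 libraries a group limit every comparison.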
